A study of Mus musculus with 3 samples.

Results

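The citric acid cycle enzymes described here are 9 genes, chosen by name: Cs, Idh3a, Idh3b, Idh3g, Ogdh, Suclg1, Sucla2, Fh1 and Mdh2. Their transcripts were read by 11 probes of 39429 on the array, and all 9 genes were among the 17460 genes tested. The study compared lower-limb skeletal muscle of control mice with that of mFoxO1KO mice, in which an inducible deletion of FoxO1 was targeted to skeletal muscle. All mice were male C57BL/6, and both genotypes ate an AIN93G diet with doxycycline at 0.625 g/kg between 8 and 14 weeks of age. Because the controls received doxycycline too, that drug is shared by both sides of every ratio. The promoter that drives the deletion is not given in the sources used here, nor is the number of animals behind an RNA sample. There were 3 biological replicates per genotype. Each of 3 Agilent mouse arrays, read in 2 colours, held 1 control sample labelled with Cy3 and 1 mFoxO1KO sample labelled with Cy5. No dye swap was made, so an effect of the dye and one of the genotype cannot be told apart.

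The citric acid cycle runs in the mitochondrial matrix and oxidises acetyl-CoA from pyruvate, fatty acids and amino acids, passing the electrons to the respiratory chain. Muscle raises the flux through it many fold in exercise, mostly through substrate supply, the need for ATP and calcium, which activates isocitrate dehydrogenase and 2-oxoglutarate dehydrogenase. FoxO1 is a forkhead transcription factor that insulin signalling keeps out of the nucleus, and in muscle it is known for shifting fuel use towards fatty acids in fasting.

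None of the 9 enzymes passed the test. A gene was called when its adjusted p (limma, Benjamini-Hochberg over all genes tested) was under 0.05, and 2.06% of all genes were called higher and 0.699% lower, 2.75% together. That split of 359 genes higher and 122 lower became 1153 and 51 when each array was only centred on its median. The unadjusted p (limma) was under 0.05 for 2 of the 9, Cs and Mdh2, a share no higher than the 26.8% of all genes. The log2 ratio of mFoxO1KO over control kept 1 sign on all 3 arrays for 6 of the 9, against 52.4% of all genes. The sign was above 0 for 5 of these 6 and below 0 for Ogdh, where 27.9% of all genes were above 0 and 24.5% below 0 on every array. The small number of members allows no closer reading of these shares. The mean ratio was above 0 for 7 members and below 0 for 2, with a median of 0.12, where 51.8% of all genes were above 0 and their median was 0.006. All 9 stood at intensity percentile 90.87 or above. Of the 1595 genes at least as bright as the dimmest member, 49.8% were above 0, with a median of -0.001. Among the brightest genes the ratios were higher, with a median of 0.048 beyond Idh3a and 0.118 beyond Idh3g. The part of brightness in the members' ratios was not tested.

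The ratios of the members were small on every array. The members had medians of 0.060, 0.046 and 0.119 on arrays 1 to 3, and all genes medians of 0.022, -0.002 and 0.008. The lowest member ratio on any array was -0.19 and the highest 0.32. The spread of a member over the 3 arrays had a median SD of 0.101, close to the 0.113 of all genes. The 95% intervals of the fit, each for 1 gene and not widened for the number of genes, reached from -0.26 for Ogdh to 0.41 for Cs. In fold terms the 9 intervals together allowed from 0.837-fold to 1.325-fold of the control level. These bounds hold for the loess processing only. With median centring in its place the log2 ratios of Cs and Mdh2 were 0.635 and 0.611, above 0.41, where all genes had a median of 0.156.

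**Figure D1:**
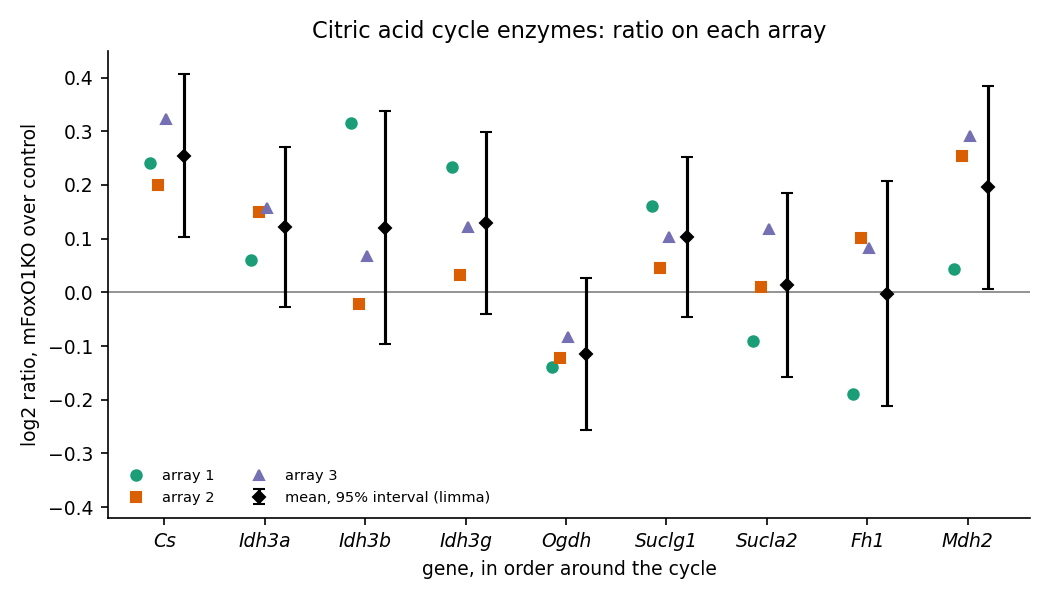
Log2 ratio of mFoxO1KO over control for each of the 9 enzymes, in order around the cycle, with a coloured symbol for each array and a black diamond with bars for the mean and its 95% interval (limma). The intervals of Cs and Mdh2 lie above 0, the other 7 include 0, and no gene passed an adjusted p of 0.05. With median centring in place of loess, all 9 means were above 0, Ogdh included. Under that setting all genes had a median of 0.156, and genes at least as bright as the dimmest member 0.315.

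The promoters of the enzymes were read for the letters of 4 motifs, because FoxO factors, oestrogen-related receptors (ERR), NRF1 and GABP of the Ets family are all known regulators of metabolic or mitochondrial genes. The RefSeq table (GRCm38.p6) held windows of 250 bases before to 50 after the start of transcription for 8 of the 9 genes, 13 windows in all, 6 of them for Ogdh. Idh3a was not matched. On either strand, the FoxO letters GTAAACA were in 0 of 13 windows, against 3.65% of all 32851 windows. The ERR letters TCAAGGTCA were also in 0, against 0.423%. The NRF1 motif (a pair of GCGC blocks with any 2 bases between) was in the window of Sucla2, against 6.23% of all windows, and the Ets letters CCGGAAG in those of Idh3b and Idh3g, against 8.86%. These 3 stretches are shown with the matched letters in capitals, at chr14:73552739-73552786 (plus strand) for Sucla2, chr2:130284442-130284486 (minus strand) for Idh3b, where the match reads on the opposite strand, and chrX:73786987-73787031 (minus strand) for Idh3g.
Sucla2: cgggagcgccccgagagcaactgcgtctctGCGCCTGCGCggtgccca
Idh3b: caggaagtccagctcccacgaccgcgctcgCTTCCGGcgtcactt
Idh3g: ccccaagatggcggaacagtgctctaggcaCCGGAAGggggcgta
The 60 bases just before the starts of Cs, at chr10:128337667-128337726, and of Mdh2, at chr5:135778589-135778648, both on the plus strand, are shown because these genes had the highest ratios. They held none of the 4 motifs.
Cs: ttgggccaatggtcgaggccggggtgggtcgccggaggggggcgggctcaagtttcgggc
Mdh2: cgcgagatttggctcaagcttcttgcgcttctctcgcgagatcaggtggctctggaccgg
A match is only a run of letters, and its absence says nothing about binding outside these windows. Idh3g and Idh3b, which carry the Ets letters, had mean log2 ratios of 0.13 and 0.12, and Sucla2, with the NRF1 letters, had 0.013. Without a match, Cs had 0.25, Mdh2 0.20, Suclg1 0.10, Fh1 -0.0023 and Ogdh -0.11. A link between the letters and the ratios was not tested.

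Cs encodes citrate synthase, which joins acetyl-CoA to oxaloacetate and whose activity is widely used as a gauge of mitochondrial content. The normalised log2 intensity of its probe was 15.80, 15.75 and 15.82 in the controls and 16.04, 15.95 and 16.14 in the mFoxO1KO samples. Every mFoxO1KO sample was above every control. For 25.8% of all genes tested the samples of the genotypes likewise did not overlap. The array ratios were 0.24, 0.20 and 0.32, which gave a mean of 0.25 ± 0.06 (SD, n = 3), or 1.19-fold, with a 95% interval of 0.10 to 0.41 and an adjusted p of 0.0859 (limma). Cs thus missed the threshold. Its rank by p was 1568 of 17460.

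Mdh2 encodes mitochondrial malate dehydrogenase, which regenerates oxaloacetate and also serves the malate-aspartate shuttle. Control levels on the log2 scale were 16.75, 16.45 and 16.47, and mFoxO1KO levels were 16.80, 16.71 and 16.76. The control of array 1 lay within the range of the mFoxO1KO samples, so the groups overlapped. Its ratios on the 3 arrays were 0.043, 0.25 and 0.29. The mean was 0.20 ± 0.13 (SD, n = 3), with an interval of 0.007 to 0.385 and an adjusted p of 0.176 (limma).

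The ratios of Cs and Mdh2 came from the bright end of the array, where most genes lay above 0. By mean intensity Cs stood at percentile 99.1 and Mdh2 at percentile 99.72 of the genes tested. The 157 genes brighter than Cs had a median ratio of 0.20, with 83.4% above 0, and the 49 genes brighter than Mdh2 a median of 0.30, with 89.8% above 0. Of those 49, 24.5% were called, against 2.75% of all genes. In the scanner software's own processed signals, which carry another dye correction, the ratio of Cs was 0.097 and that of Mdh2 0.010, and the brighter genes had medians of 0.054 and 0.11. With each array only centred on its median the ratio of Cs was 0.64 and that of Mdh2 0.61. Both then passed (limma, adjusted p of 0.019 and 0.0195), while the brighter genes had medians of 0.60 and 0.72 and all genes a median of 0.156. Under each of these 3 settings the ratio of Mdh2 was below the median of the genes brighter than it, and that of Cs was above it. The part of brightness in either ratio was not tested.

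**Figure D2:**
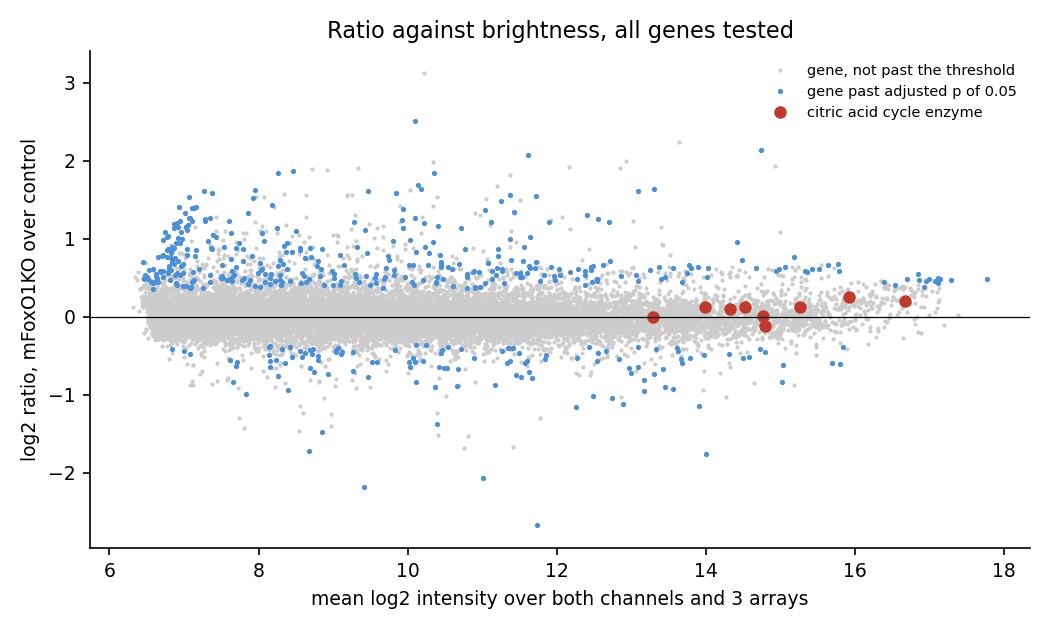
Mean log2 ratio of mFoxO1KO over control against mean log2 intensity for the 17460 genes tested, with genes past an adjusted p of 0.05 in blue and the 9 enzymes in red. The enzymes sit at the bright end of the plot, and beyond the intensity of Cs the cloud lies mostly above 0, with a median of 0.20 over 157 genes.

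The 3 genes of the NAD-dependent isocitrate dehydrogenase had nearly equal mean ratios. This enzyme turns isocitrate into 2-oxoglutarate and is an assembly of catalytic alpha subunits (Idh3a) with regulatory beta (Idh3b) and gamma (Idh3g) subunits. Idh3a had levels of 14.62, 14.34 and 14.45 in the controls and 14.68, 14.49 and 14.61 in the mFoxO1KO samples. The groups overlapped, but the mFoxO1KO sample was the higher on every array. Idh3g had 15.12, 15.22 and 15.22 in the controls and 15.35, 15.25 and 15.34 in the mFoxO1KO samples, without overlap. Overlap was also absent for 25.8% of all genes tested. Idh3b had 13.79, 13.96 and 14.02 against 14.11, 13.94 and 14.09, with overlap and with the lower value in the mFoxO1KO sample of array 2.

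The mean ratios were 0.12 ± 0.05 for Idh3a, 0.12 ± 0.18 for Idh3b and 0.13 ± 0.10 for Idh3g (SD, n = 3). Their adjusted p values were 0.248, 0.403 and 0.274 (limma). The array order differed between the subunits. Idh3b and Idh3g had their highest ratio on array 1, at 0.32 and 0.23, where Idh3a had its lowest, at 0.060. Inside an array, Idh3a minus Idh3b was -0.26, 0.17 and 0.09, and Idh3b minus Idh3g was 0.08, -0.05 and -0.05. With 3 arrays an exact two-sided sign-flip test of such a difference cannot go below 0.25, so none is given. Without replicate 1 the ratio of Idh3b was 0.023 and that of Idh3g 0.077.

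Ogdh encodes the first subunit of the 2-oxoglutarate dehydrogenase complex, which releases carbon dioxide and makes succinyl-CoA. It was the enzyme with the lowest mean, and its 3 probes differed. The brightest probe had levels of 14.91, 14.68 and 14.98 in the controls and 14.77, 14.56 and 14.90 in the mFoxO1KO samples. The mFoxO1KO sample was the lower on each array, although the groups overlapped. Its ratio was -0.11 ± 0.03 (SD, n = 3), with array values of -0.14, -0.12 and -0.083 and an adjusted p of 0.254 (limma). The second probe gave 0.062, 0.046 and 0.096, above 0 on every array with a mean of 0.068. The third gave -0.18, -0.015 and -0.13 with a mean of -0.11. It was far dimmer, with a mean log2 intensity of 9.05, against 14.79 for the brightest probe and 14.49 for the second. When each probe was tested on its own, adjusted p values were 0.252, 0.462 and 0.322 (limma). All 3 carry the same transcript accession, NM_001252287, in the array's annotation, and probe sequences were not used here. The mean over the probes was -0.052. With median centring in place of loess, the brightest probe gave 0.216, where all genes had a median of 0.156 and genes brighter than it 0.422.

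Of the 7 pairs of genes set against each other, Cs with Ogdh had the steadiest difference. The pairs did not cover all members, and Suclg2 in them is from outside the 9. Cs and Ogdh are the members with the highest and the lowest mean ratio, so a gap between them was given beforehand. Genes brighter than Cs had a median ratio of 0.20 and those brighter than Ogdh 0.065, and the part of brightness in the difference was not tested. With the brightest probe of Ogdh, the ratio of Cs exceeded that of Ogdh by 0.38, 0.32 and 0.41 on the 3 arrays. The mean difference was 0.37 ± 0.04 (SD, n = 3), given as a description. With the second probe of Ogdh it was 0.19 ± 0.04, from 0.18, 0.15 and 0.23 on the arrays, and with the third 0.36 ± 0.13. In the processed signals the difference from the brightest probe was 0.23.

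Succinyl-CoA ligase makes ATP or GTP from succinyl-CoA. Suclg1 encodes the alpha subunit shared by both forms, Sucla2 the beta subunit of the ATP-forming enzyme and Suclg2, which is not among the 9, that of the GTP-forming enzyme. Suclg1 had control levels of 14.20, 14.23 and 14.35 and mFoxO1KO levels of 14.36, 14.28 and 14.46, overlapping but higher on each array. Its ratio was 0.10 ± 0.06 (adjusted p = 0.313, limma). Sucla2 had 14.86, 14.65 and 14.77 in the controls and 14.77, 14.66 and 14.89 in the mFoxO1KO samples. Its ratio of -0.091, 0.011 and 0.12 changed sign between arrays and had a mean of 0.013 ± 0.105 (adjusted p = 0.919, limma). Suclg2 had 0.12 ± 0.10, between 0.014 and 0.22 on the arrays. None of the 3 subunit genes passed the threshold.

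Fh1 encodes fumarase, which hydrates fumarate to malate. Its mean ratio was the nearest to 0, at -0.0023 ± 0.163 (SD, n = 3), with an interval of -0.21 to 0.21 and an adjusted p of 0.989 (limma). Array 1 gave -0.19, array 2 gave 0.10 and array 3 gave 0.082. The level of Fh1 differed far more between arrays than between genotypes. Controls had 13.83, 13.48 and 12.56 and mFoxO1KO samples 13.64, 13.58 and 12.64, so both samples of array 3 were low. In the signals as scanned, the control spot read 11084, 8878 and 4615. The range of its mean intensity over the arrays was 1.07 on the log2 scale, wider than for 99% of genes tested, where the median range was 0.24. The other 8 members ranged by 0.11 to 0.40. No spot of a member was marked as an outlier by the scanner software, and the ratio of array 3 fell within that of the other arrays. Without replicate 1 the mean was 0.092.

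**Figure D3:**
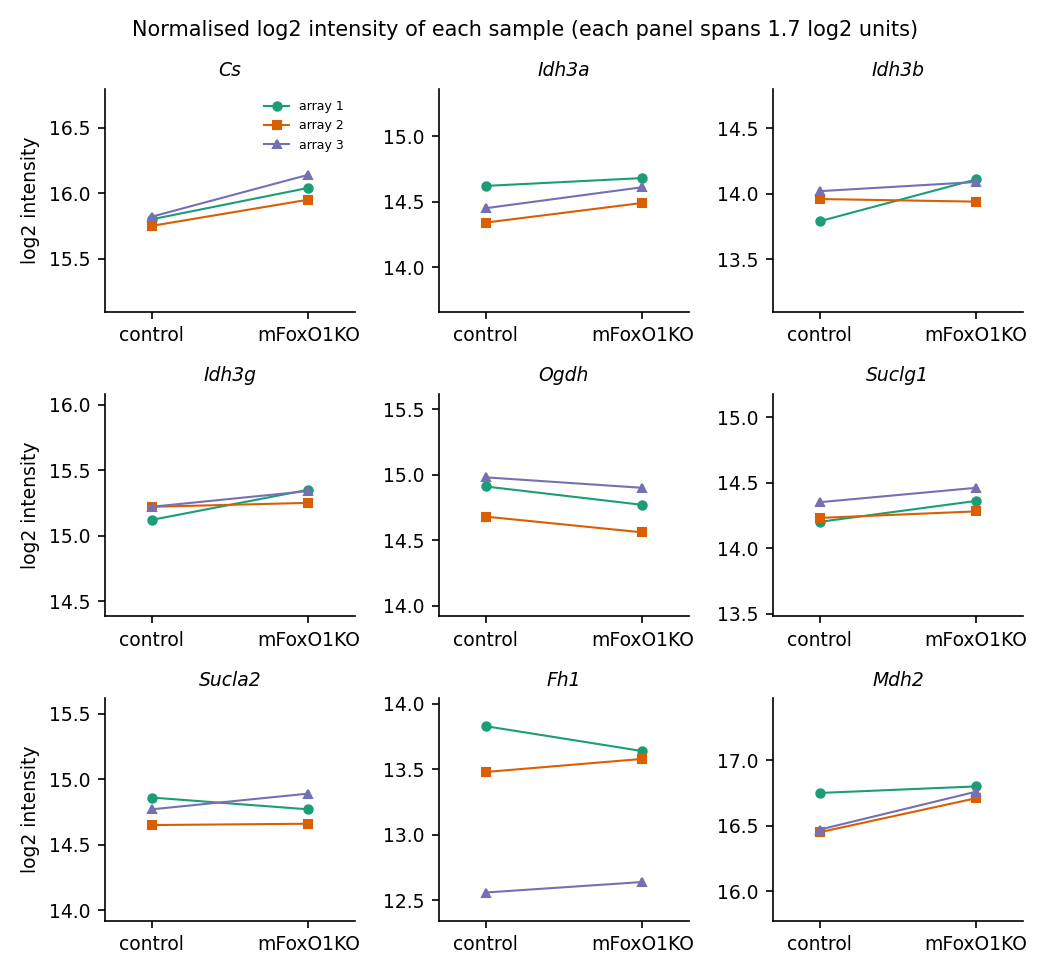
Normalised log2 intensity of the 9 enzymes in the control and mFoxO1KO sample of each array, joined by a line per array; every panel spans the same height but starts at its own level. Samples of the genotypes do not overlap for Cs and Idh3g, 2 of the 9, nor for 25.8% of all genes tested. They overlap for the other 7, and both samples of array 3 are low for Fh1 (12.56 and 12.64).

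The remaining genes of the cycle gave no call either. Of 14 tested genes of 15 listed, among them those for NADP-dependent isocitrate dehydrogenase, the other parts of 2-oxoglutarate dehydrogenase, Suclg2 and succinate dehydrogenase with its assembly factors, none was called higher and none lower. Their median ratio was 0.05 and 4 of 14 had an unadjusted p under 0.05 (limma), a share near the 26.8% of all genes. By smallest p, Dlst, the second subunit of the 2-oxoglutarate dehydrogenase complex, had 0.19 ± 0.07 (adjusted p = 0.142, limma). Chosen after its value was seen, Idh2 had the lowest ratio of these genes, with -0.88, -0.25 and -0.14 on the arrays. The 4 subunits of succinate dehydrogenase had means of 0.016 (Sdha), 0.12 (Sdhb), -0.036 (Sdhc) and -0.11 (Sdhd).

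Genes that feed the cycle missed the threshold as well. Of 6 genes for pyruvate import and the pyruvate dehydrogenase core, none passed (median -0.08), and 1 had an unadjusted p under 0.05 (limma). The E1 subunit gene Pdha1 had 0.26 ± 0.10 (adjusted p = 0.0992, limma). The component X gene Pdhx had -0.12 ± 0.02 (adjusted p = 0.245), or 0.101 with median centring only. Of 18 tested genes of 20 that refill the cycle or encode cytosolic counterparts of its enzymes, none passed (median 0.13). The unadjusted p (limma) was under 0.05 for 8 of the 18, against 26.8% of all genes, and 13 had means above 0. The mitochondrial alanine transaminase gene Gpt2 had -0.33 ± 0.11 (adjusted p = 0.0747, limma), below 0 on every array. The cytosolic aspartate transaminase gene Got1 had 0.26 ± 0.06 (adjusted p = 0.0822), above 0 on every array. Chosen after their values were seen, the cytosolic malate dehydrogenase gene Mdh1 had 0.21 ± 0.04, close to the 0.20 of Mdh2, and Csl, a gene similar to citrate synthase, had 0.21 ± 0.06. Whether the probes of Cs and Csl, or of Mdh1 and Mdh2, also bind each other's transcripts was not tested.

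Carriers of cycle intermediates, cofactor genes and calcium uptake genes gave no call either. In that order, the unadjusted p (limma) was under 0.05 for 2 of 4, 1 of 7 and 2 of 7 tested genes. Of 8 carriers 4 were tested, and the median was 0.19. Of these, Slc25a22, a glutamate carrier, had 0.32 ± 0.22 and the citrate carrier gene Slc25a1 had 0.84 ± 0.68 (adjusted p of 0.126 and 0.132, limma). The ratios of Slc25a1 were 1.34, 0.061 and 1.11, low on array 2, as those of adipocyte genes were. Of 7 tested genes that supply lipoate, thiamine diphosphate, coenzyme A or NAD cofactors, the mitochondrial NAD kinase gene Nadk2 had -0.34 ± 0.32 and the lipoyltransferase gene Lipt1 0.15 ± 0.07, with a list median of -0.08. Of 7 tested genes of mitochondrial calcium uptake, the regulator gene Micu3 had -0.22 ± 0.12 and the ion exchanger gene Letm1 0.18 ± 0.05, with a list median of 0.13. The adjusted p values of these 4 lay between 0.139 and 0.203 (limma).

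Among 20 respiratory chain genes, which stand for the pathway that takes up the electrons of the cycle, none passed, with a median of 0.08. The unadjusted p (limma) was under 0.05 for 9 of the 20, against 26.8% of all genes. Means were above 0 for 16 of the 20, against 51.8% of all genes. The part of brightness in these ratios was not tested. The complex I gene Ndufv1 had 0.23 ± 0.06 (adjusted p = 0.101, limma). Factors that control mitochondrial genes gave the only calls among the lists, 2 higher and none lower of 15, where 2.06% of all genes were called higher and 0.699% lower. Ppara, a nuclear receptor gene of fatty acid catabolism, rose by 0.87 ± 0.09 (SD, n = 3, adjusted p = 0.0179, limma). Ppargc1a, a coactivator gene known to raise mitochondrial genes, rose by 1.35 ± 0.52 (adjusted p = 0.0492), a call kept in 7 of 20 alternatives. Neither passed without replicate 2, where the adjusted p values (limma) were 0.106 and 0.0646. Chosen after its value was seen, Esrra, which encodes a receptor that works with this coactivator on genes of the cycle, had -0.0079 ± 0.119. Other genes of the list, also chosen so, went either way. Esrrb had 0.43 ± 0.11 (adjusted p = 0.0502, limma), Esrrg 0.14 ± 0.09, Tfam -0.22 ± 0.02 and Yy1 -0.45 ± 0.18. The unadjusted p (limma) was under 0.05 for 5 of the 15 genes.

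**Figure D4:**
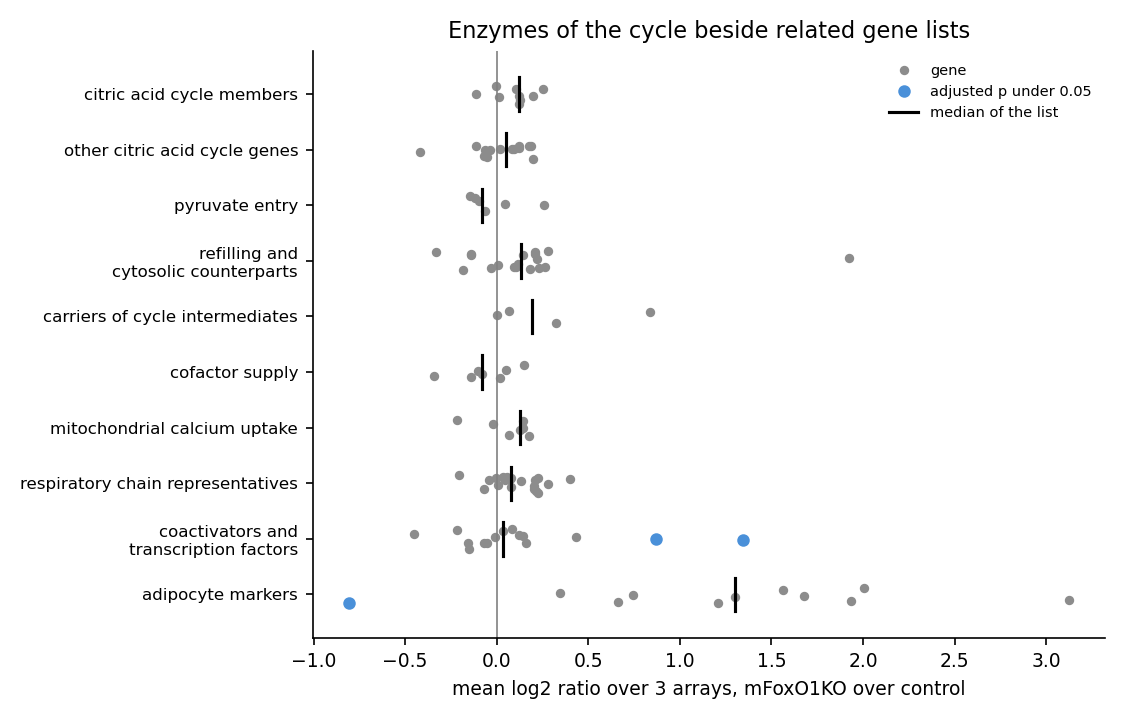
Mean log2 ratio over the 3 arrays for each gene of the 9 cycle enzymes, of 8 related lists and of the adipocyte markers, with the list's median as a bar and genes past an adjusted p of 0.05 in blue. The cycle enzymes lie between -0.11 and 0.25. The 2 blue genes among the coactivators are Ppara and Ppargc1a, and the blue gene of the adipocyte list is Car3 at -0.81. The far point of the refilling list is Pck1 at 1.92, with array ratios of 3.47, 0.0063 and 2.30.

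Foxo1 itself was lower in mFoxO1KO on every array, by probes at 23.9% and 38.1% of control (adjusted p of 0.0268 and 0.0535 with each probe on its own, limma). Whether these probes lie in the deleted part is not known here, and without replicate 2 the brighter one had an adjusted p of 0.106. Of the 12 muscle fibre markers, 11 were tested with a median of 0.07, and 1 was called, Mb, higher. Chosen after their values were seen, the myosin genes of this list differed. Myh2 had ratios of -1.69, -0.34 and 1.36 on arrays 1 to 3, and Myh7 had -0.80, -0.050 and -0.56. Myh1 had 0.22, 0.28 and 0.66, and Myh4 had -0.069, 0.13 and 0.28. The part of fibre type in the members' ratios was not tested. Atp2a1 was left out because its spot on array 3 was marked as an outlier. Of 14 adipocyte markers 11 were tested and 10 of these had means above 0, none of them called. The 1 call was Car3, lower by a log2 ratio of -0.81 ± 0.07 (SD, n = 3, adjusted p = 0.0188, limma). Its ratios were -0.74, -0.80 and -0.89 on arrays 1 to 3. Which cells of the muscle gave the Car3 signal was not tested. The medians of the 11 tested adipocyte markers on these arrays were 2.85, 0.20 and 1.19. Their summed normalised intensity was 59200 to 104000 in the controls and 109000 to 220000 in the mFoxO1KO samples. Lep was not well above background on any array, Ucp1 was so on arrays 1 and 3 only, and Elovl3 only in the mFoxO1KO samples of those arrays. On the same arrays the median of the cycle enzymes was 0.060, 0.046 and 0.119, and without replicate 1 it was 0.077. The part of adipocyte RNA in these ratios was not tested, and in whole muscle fewer cells of a type and less RNA per cell cannot be told apart. Markers of endothelium, macrophages, fibroblasts, Schwann cells, satellite cells, erythrocytes and neutrophils gave no call, with list medians of 0.007 to 0.754.

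The genes whose ratios lay nearest to the members' median on each array were Oas1d, Imp4 and Maip1. Their root mean square distance over the 3 arrays was 0.00598, 0.006 and 0.00649 on the log2 scale. Oas1d was dim, with a mean log2 intensity of 6.64, where the dimmest member had 13.29. In the processed signals its ratio was 0.468, so its likeness to the members depended on the processing. Imp4 and Maip1 had 0.0295 and 0.0291 in those signals. As 565 genes lay within 0.05 of that profile, the likeness describes a flat pattern shared by many genes.

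**Figure D5:**
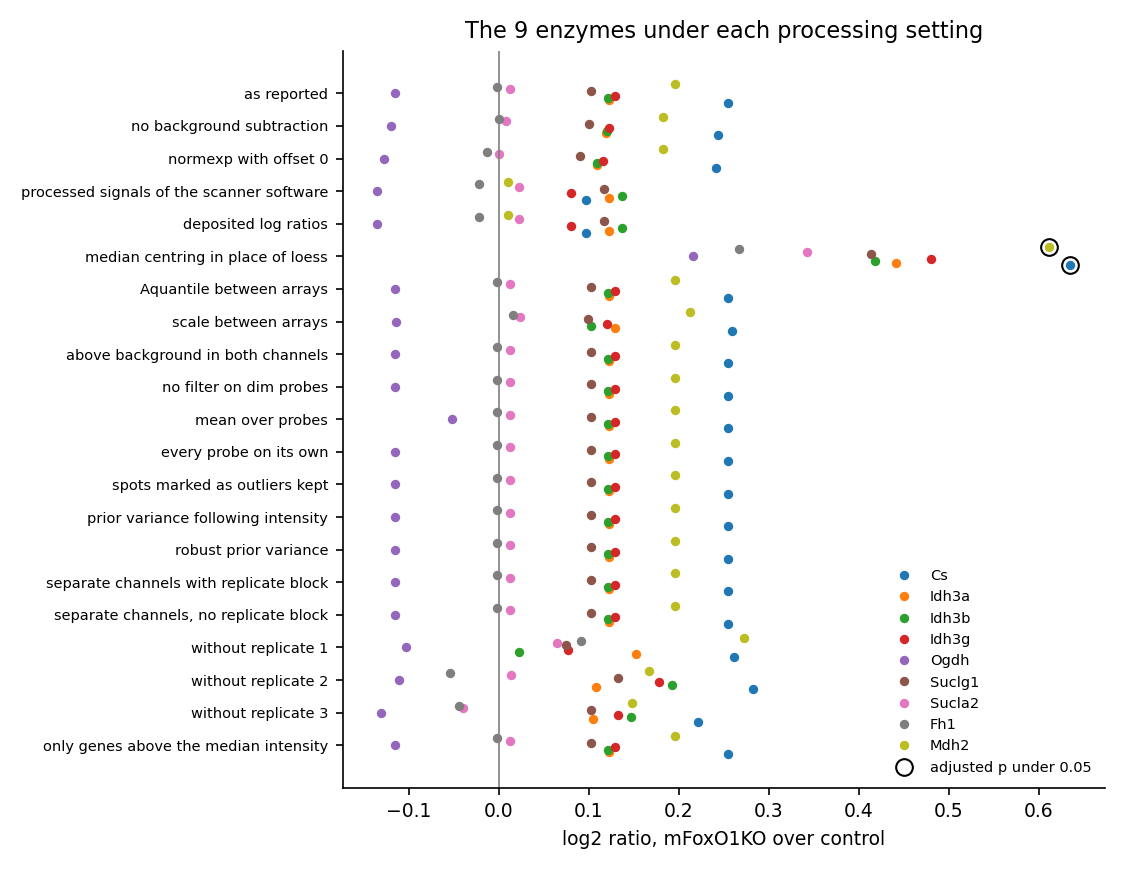
Mean log2 ratio of the 9 enzymes under the reported processing and under each of 20 alternatives, with a ring where the adjusted p was under 0.05. Rings appear only with median centring in place of loess, for Cs (0.64) and Mdh2 (0.61), where all 9 ratios lie above 0. All genes tested then had a median of 0.156, and those at least as bright as the dimmest member 0.315.

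The size of these ratios depended on the processing. Over 20 alternatives the ratio of Cs ran from 0.097 to 0.635 and that of Mdh2 from 0.010 to 0.611, always above 0. The ratios of Idh3a, Idh3b, Idh3g and Suclg1 were likewise above 0 in all 20. Ogdh was below 0 in 19, Sucla2 above 0 in 18 and Fh1 below 0 in 17. These counts are not 20 separate checks of direction. The alternatives of the variance model, the pairing, the filter and the outlier spots left the ratio of each member as it was. The processed signals and the deposited log ratios gave the same values.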

How the data were processed

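RNA (0.2 ug a sample) of control and mFoxO1KO muscle was labelled and hybridised in pairs to 3 arrays of 1 slide. Spot intensities (median signal and background, and processed signal) and the log10 ratio of Cy5 over Cy3 were made by the scanner software, Agilent Feature Extraction, version 11.5.1.1 per the file headers and 9.3.2.1 per the submitters' processing notes. The deposited log10 ratios equal the ratio of the deposited processed signals, and they served as an alternative.

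From the median signals of 44397 spots per array, the background was corrected with normexp (offset 50) and the log2 ratio normalised by loess, with control spots given no weight and 281 to 319 spots per array marked as outliers left out. Levels per sample are log2 intensities after loess and Aquantile scaling of the deposited intensities. A probe was kept when well above background in 1 and the same channel on all 3 arrays, in a share of at least 0.5 of its spots, and measured on all 3. A gene took its brightest probe. Of 39429 probes, 69.8% were named through the accession in the RefSeq table. Each ratio was tested against 0 with limma (3.58.1, R 4.3.3), with Benjamini-Hochberg adjustment over 17460 genes, and this step was tested on simulated data. Pairing comes from the shared array, and the number of arrays limits the precision. SD is over arrays.

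The members and lists were chosen with earlier results of these data known. Named genes are the members, Foxo1, from each list those past the threshold or otherwise the 2 with the smallest p, and the 3 nearest in profile. Some genes that this rule names are not reported here. The files use mouse build mm9 per the file headers, so gene coordinates are not given; promoter windows are on GRCm38.p6. The alternatives covered background correction, normalisation, the filter, probe choice, outlier spots, the variance model, the pairing and each array left out.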

Additional observations from a re-analysis of the deposited data

How the results depend on the processing

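With 3 arrays and no dye swap, only large or steady ratios can pass, and the 20 alternatives moved both the counts of called genes and the ratios of the cycle enzymes. Against 481 genes called (359 higher, 122 lower), normexp with offset 0 gave 133 (108, 25), the processed signals and the deposited log ratios 212 each (171, 41), median centring 1204 (1153, 51), scaling between arrays 830 (601, 229), a filter on both channels 55 (37, 18) and no filter 746 (553, 193). The mean over probes gave 77 lower. Leaving out 1 replicate gave 49 to 405 calls (46 to 298 higher, 3 to 107 lower), the fewest without replicate 2. Chosen after seeing the data, a test of only the genes above the median intensity gave 9 (6, 3), from fewer genes tested. Separate channels with the array as replicate block repeat the fit of the ratio, so the 481 calls there are no separate check. Without the block there were 216 (164, 52). The block changed no call of a cycle enzyme. Members past the threshold were 2 with median centring (Cs 0.635, Mdh2 0.611) and 0 under the other 19 alternatives. Their median was 0.0799 with the processed signals and the deposited log ratios, 0.418 with median centring and 0.077 to 0.132 with 1 replicate left out. Calls in the other lists, 2 as reported, were 1 without background subtraction, with offset 0, the processed signals, the deposited log ratios, both channels, the mean over probes and no replicate block, 15 with median centring, 0 to 2 with 1 replicate left out and 0 above the median intensity. Ratios that changed sign were those of Ogdh (0.216), Fh1 (0.267) and Pdhx (0.101) with median centring, Fh1 with scaling (0.016) and Sucla2 with offset 0 (-0.000117). With median centring all genes had a median of 0.156, and the genes brighter than Ogdh and than Fh1 had medians of 0.422 and 0.315. With 1 replicate left out Fh1 ran from -0.0539 to 0.0916 and Sucla2 from -0.0399 to 0.0647. The cause of these changes was not tested.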
